A study of Mus musculus with 1279 samples.

Results

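Matricellular and adhesive matrix proteins are secreted by cells into the extracellular matrix, where many of them act on cell shape, adhesion and growth factor signals more than they carry load. They bind integrins, collagens and heparan sulphate chains, and several are known in the heart from development, valve formation and wound repair. Fibronectin is the exception in kind, a large adhesive glycoprotein that cells assemble into fibrils. The 10 genes described here were chosen by name: Postn and Tgfbi (fasciclin-domain proteins), Tnc and Tnxb (tenascins), Sparc, Sparcl1 and Smoc2 (the SPARC family), Spon2 (a spondin), Fn1 (fibronectin) and Vit (vitrin, a von Willebrand A domain protein). All 10 were found among the 46517 genes of the table and each had counts.

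Single cells of the hearts of adult male mice, 10 to 20 weeks old, were profiled with Smart-seq2, a plate-based method that reads full-length cDNA and carries no molecular identifiers. The cells came from 4 strains, and all had been sorted as negative for the endothelial antigen CD31. C57BL6 cells (581, or 45.4% of all) were selected with an antibody against PDGFRα or one against PDGFRβ, while those of PdgfrbGFP (28.5%), Cspg4dsRED (12.7%) and Acta2GFP (13.4%) carried fluorescent reporters driven by regulatory sequence of Pdgfrb, Cspg4 or Acta2 and were backcrossed to the C57Bl6/J background. Each cell had a cluster number, 1 to 8, assigned by the authors from the same counts, so these comparisons ask how the genes differ between groups of cells that gene expression itself had drawn.

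Levels are given as CPM, the counts of a gene scaled to a common library total. Clusters 1 to 5 are fibroblasts in the study's text, cluster 1 being described there as likely valve interstitial cells. Clusters 6 to 8 were taken here as mural cells, the smooth muscle cells and pericytes that wrap vessels. The sum of 5 fibroblast markers (Pdgfra, Col1a1, Dcn, Lum, Col3a1) ran from 10005 to 14027 CPM in clusters 1 to 5 and from 154.8 to 4641 CPM in clusters 7 and 8, whereas 5 mural markers (Rgs5, Notch3, Mcam, Des, Cspg4) ran from 42.5 to 730 CPM and from 5239 to 11764 CPM. Cluster 6 expressed 4 smooth muscle genes at 9946 to 13384 CPM, but its mural markers were at 1852 CPM in Acta2GFP, 781 in C57BL6 and 2446 in Cspg4dsRED. These were below its fibroblast markers in each strain, at 2709, 13185 and 2997 CPM, and its pericyte markers were at most 510 CPM. Cluster 6 was thus mural by its smooth muscle genes and not by the mural list, and is called by its number. The study describes a small heart smooth muscle population, likely of the large vessel outlets, with Actc1, Itga8 and Nov (Ccn3) among its enriched genes. Whether cluster 6 held such cells was not tested. The 5 valve interstitial markers summed to between 6302 and 7531 CPM in cluster 1 and to at most 739 CPM in clusters 2 to 5, but reached 1388 CPM in cluster 6. Cardiomyocyte markers (9 genes) were at 1346 to 1922 CPM in cluster 7 and at up to 1527 CPM in cluster 6. They were at most 390 CPM in cluster 8 and at most 352 CPM in clusters 1 to 5. In the highest of these sums, cluster 7 of PdgfrbGFP, Myh6, Actc1, Ryr2 and Nppa had no count. Actc1 is also among the genes the study names for the smooth muscle population above. Endothelial markers were highest in cluster 6 of Acta2GFP, at 277.5 CPM. Immune markers stayed at or below 184.5 CPM and mesothelial markers at or below 0.839 CPM in every sum of 3 cells or more. The authors had removed cells with clear endothelial or immune signatures, so these 2 lists are no independent check of purity. Cells held between 46268 and 1302397 counts without spike-ins, and the median was lowest in cluster 8 (167873.5 counts) and highest in cluster 4 (349816 counts).

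Counts were summed over the cells of a strain within a cluster or group of clusters, and the strain was the replicate, since no label names an animal. Strain, sort and plate cannot be told apart between strains, and only C57BL6 was on several plates. In such sums, fewer cells carrying a transcript and less RNA per cell cannot be told apart either, so shares of cells are given beside the levels. A gene was called where edgeR's quasi-likelihood test across all genes gave a Benjamini-Hochberg adjusted p below 0.05.

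The fasciclin-domain pair shows the contrast between the genes most clearly, and the sequences just upstream of both genes are given for that reason. Postn (ENSMUSG00000027750) lies at chr3:54361109-54391037 on the plus strand of GRCm38, and Tgfbi (ENSMUSG00000035493) at chr13:56609523-56639562, also on the plus strand. The 250 bases before a RefSeq start (GRCm38.p6) are printed 5′ to 3′ on the plus strand for Postn, chr3:54360857-54361106, and for Tgfbi, chr13:56609336-56609585. The Tgfbi stretch overlaps the first bases of the gene as GENCODE M21 draws it. Capitals mark matches, on either strand, to any of 5 short motifs. These were the core promoter element TATAAA, the element GGAATG that TEAD factors bind, the AP-1 element TGACTCA, the SMAD element CAGACA and the Sp1 element GGGCGG.
Postn: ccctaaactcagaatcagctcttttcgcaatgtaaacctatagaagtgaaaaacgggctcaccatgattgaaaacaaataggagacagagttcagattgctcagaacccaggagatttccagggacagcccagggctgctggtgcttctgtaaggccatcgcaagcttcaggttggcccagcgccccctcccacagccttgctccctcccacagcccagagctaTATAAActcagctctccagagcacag
Tgfbi: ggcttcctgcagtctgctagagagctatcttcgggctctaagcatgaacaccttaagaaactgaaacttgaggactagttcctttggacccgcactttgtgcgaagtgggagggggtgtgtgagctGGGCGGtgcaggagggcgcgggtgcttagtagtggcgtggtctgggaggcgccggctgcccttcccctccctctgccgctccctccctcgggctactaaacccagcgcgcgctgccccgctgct
The Postn stretch held 1 match, to TATAAA, and 4 CG dinucleotides, and the Tgfbi stretch held 1 match, to GGGCGG, and 15 CG dinucleotides. Over 32851 RefSeq stretches of this kind the median was 6 CG dinucleotides, 12.4% held TATAAA and 32.7% held GGGCGG on either strand. These matches are descriptions of letters and say nothing of a factor. RefSeq gives Postn a second start upstream, with none of the 5 motifs in its 250 bases. Promoters of Tnc, Tnxb and Sparc were also in the table, while Sparcl1, Smoc2, Spon2, Fn1 and Vit had no entry.

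Levels of different genes were compared only per kilobase of the longest coding transcript. In fibroblasts the highest was Sparc, a calcium-binding protein that binds collagen, with 1234 ± 134.9 CPM per kilobase (SD, n = 4 strains). Sparcl1, its close relative, followed with 669 ± 57.5, and Smoc2, which joins a SPARC-type domain to thyroglobulin repeats, with 607 ± 130.03. Postn (229.5 ± 130.6), Spon2 (216.4 ± 55.6) and Tgfbi (158.03 ± 39.6) formed a middle group whose ranges overlapped. Vit (30.3 ± 11.7), Fn1 (21.3 ± 14.4) and Tnxb (17.9 ± 8.94) were lower, and Tnc was at 0.233 ± 0.271. The strain ranges of Sparc and Sparcl1 did not overlap in fibroblasts, whereas those of Sparcl1 and Smoc2 did. Per kilobase of all exons of a gene, Postn (84.5) came after Spon2 (150.2) and Tgfbi (113.7), so that its place depended on the length used. In mural cells the scale of the longest coding transcript gave 1315 ± 511 for Sparc, 980 ± 145.7 for Sparcl1, 436 ± 143.5 for Postn and 34.4 ± 5.86 for Fn1. Smoc2 was there at 12.01 ± 8.59, Tnxb at 4.56 ± 4.21, Vit at 3.76 ± 5.29, Spon2 at 2.44 ± 1.78, Tgfbi at 2.36 ± 1.48 and Tnc at 1.54 ± 1.90.

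**Figure D1:**
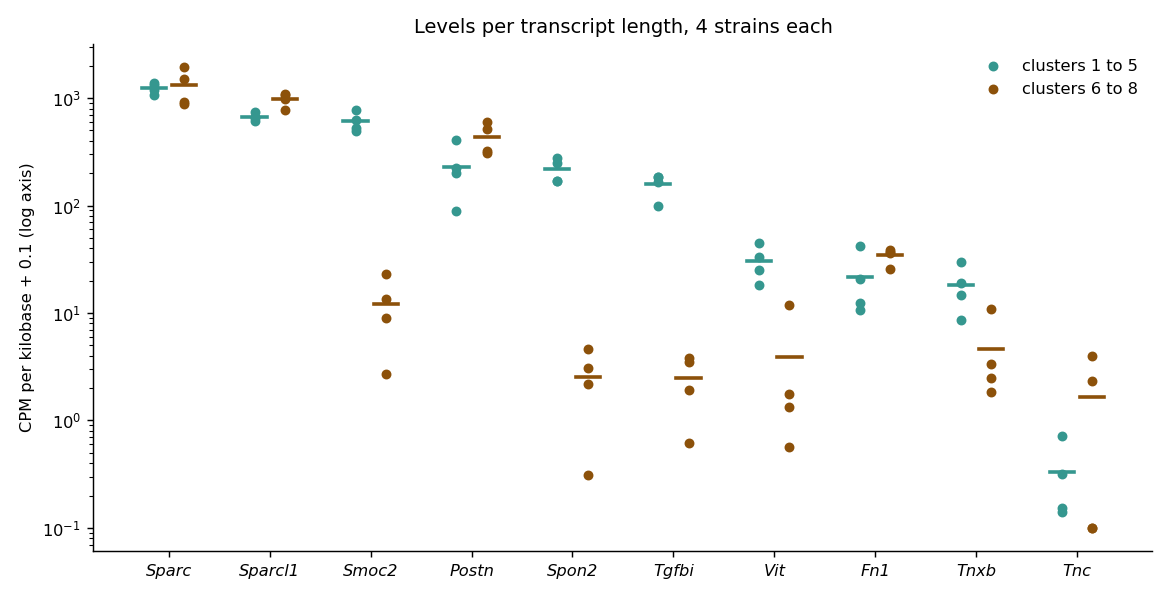
Level of the 10 genes per kilobase of the longest coding transcript (CPM per kilobase plus 0.1, log axis) in clusters 1 to 5 (green) and clusters 6 to 8 (brown). Points are the 4 strains and bars their means; Sparc, Sparcl1 and Postn were high on both sides, while Smoc2, Spon2 and Tgfbi were high only in the sums of clusters 1 to 5.

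The comparison of fibroblasts with mural cells asks which of these genes mark the fibroblast side in the heart. Tgfbi, Smoc2 and Spon2 were higher in fibroblasts in all 4 strains and passed the test. Vit and Tnxb were higher in all 4 strains without passing it, and Postn, Sparc, Sparcl1, Fn1 and Tnc were not called either. The strains filled these sides with different clusters. Cluster 7 gave 33 of the 51 mural cells of Acta2GFP and 75 of Cspg4dsRED, but 9 of PdgfrbGFP and 1 of C57BL6, whose mural cells were mostly of cluster 8, and PdgfrbGFP had none of cluster 6. Cluster 5 was the largest fibroblast cluster in C57BL6 and PdgfrbGFP and held 2 cells of Acta2GFP and 1 of Cspg4dsRED. Differences between strains in this comparison cannot be told apart from this mix of clusters. Of the members, 3 of 10 were called, all higher, where 5.93% of 15117 genes tested were called in either direction and 3.47% higher. The median difference of the members was 0.91 on the log2 scale, against -0.02 over all genes tested. Without clusters 1 and 6, Tgfbi, Smoc2 and Spon2 were again the members called. The median share of mitochondrial counts was 2.51% in cluster 7, 2.76% in cluster 8 and 1.32% in cluster 6. It ran from 1.38% to 1.75% in clusters 1 to 5, and its part in the differences was not tested.

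Tgfbi, a fasciclin-domain protein induced by TGF-β that binds collagen and integrins, was at 270.3 CPM in fibroblasts of C57BL6, 496 in those of PdgfrbGFP, 454 in those of Cspg4dsRED and 496 in those of Acta2GFP. The mural sums of the same strains were at 4.98, 10.1, 1.41 and 9.22 CPM. The groups did not overlap, and the fitted log2 difference was 6.02 ± 0.65 (SE, n = 4 strains a side, edgeR adjusted p = 0.000651).

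Smoc2 (chr17:14279506-14404790, plus strand) was at 1395, 1769, 2217 and 1491 CPM in fibroblasts of C57BL6, PdgfrbGFP, Cspg4dsRED and Acta2GFP, and at 38.3, 25.1, 7.43 and 65.2 CPM in mural cells. The lowest fibroblast sum was above the highest mural sum. The log2 difference was 5.65 ± 0.63 (edgeR adjusted p = 0.000735).

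Spon2 (chr5:33198184-33218455, minus strand), a secreted spondin also known as an integrin ligand, was at 565, 346, 514 and 346 CPM in fibroblasts of the same strains and at 9.15, 4.28, 0.424 and 6.10 CPM in mural cells. The sums did not overlap, and the log2 difference was 6.47 ± 0.81 (edgeR adjusted p = 0.00143).

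Small counts of these 3 genes were nevertheless found in many mural cells. A Smoc2 count was present in 69.2% to 91.3% of the cells of clusters 6 to 8, a Tgfbi count in 38.5% to 64.3% and a Spon2 count in 24.6% to 46.9%, and 30.98% to 65.6%, 10.9% to 31.8% and 5.91% to 21.9% of cells kept one after thinning each cell to 50000 counts. None of the 353 cells of clusters 6 to 8 reached 100 CPM of Tgfbi, which allows a share of up to 0.85%. Within the 4 plates that held at least 10 cells of each side, mural wells took between 0.141% and 1.82% of a plate's counts of these genes, and their counts went with those of fibroblast wells in the same row or column (Spearman's rho between 0.23 and 0.67, over at least 37 mural wells a plate). These wells share a plate and depth, and the part of such counts in the mural levels was not tested.

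Vit and Tnxb were the next in size. Vit (chr17:78508064-78627408, plus strand) was at 90.6, 67.1, 48.7 and 122.2 CPM in fibroblasts of C57BL6, PdgfrbGFP, Cspg4dsRED and Acta2GFP and at 3.36, 1.26, 4.55 and 31.6 CPM in mural cells. The sides did not overlap, yet the log2 difference of 3.03 ± 0.90 gave an edgeR adjusted p of 0.0890. Tnxb (chr17:34670535-34719815, plus strand), which organizes collagen fibrils, was at 177.4, 103.2, 233.2 and 362 CPM in fibroblasts and at 21.3, 29.3, 40.1 and 131.9 CPM in mural cells, so that the highest mural sum exceeded the lowest fibroblast sum. Its difference was 1.95 ± 0.59 (edgeR adjusted p = 0.0912). With the strain entered as a block both passed, at 3.95 ± 0.77 (adjusted p = 0.0435) for Vit and 2.20 ± 0.35 (adjusted p = 0.0242) for Tnxb, when 5 members and 4.81% of all genes were called. The Acta2GFP mural cells had the highest Vit and Tnxb of that side. Their cluster 8 held the most fibroblast marker RNA among strains (4641 CPM against 780 to 1541). Cluster 6 of C57BL6, with 3 cells, held more of it (13185 CPM), with Tnxb at 0.980 and Vit at 2.94 CPM. Acta2GFP cells had a median of 6388 genes with a count, against 3358 to 4265 in the other strains. The part of either in the Vit and Tnxb values was not tested. Without Acta2GFP both genes were called, at 4.52 for Vit (edgeR adjusted p = 0.0159) and 2.47 for Tnxb (adjusted p = 0.0235).

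The remaining members were shared between the sides. Sparc (chr11:55394500-55423183, minus strand) was at 2467 to 3152 CPM in fibroblasts and 2011 to 4476 CPM in mural cells, and every one of these heart cells had a count. Its difference was -0.12 ± 0.33 (edgeR adjusted p = 0.917). Sparcl1 (chr5:104079111-104113733, minus strand) was lower in fibroblasts in all 4 strains, at 1688 to 2065 CPM against 2143 to 3019 CPM, but its difference of -0.56 ± 0.23 was not called (edgeR adjusted p = 0.247). DESeq2 gave -0.63 with an adjusted p of 0.0274.

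Postn, a matricellular protein known from valve formation and from activated fibroblasts after injury, did not follow the fibroblast side. Its fibroblast sums were at 287.7, 648, 709 and 1298 CPM in C57BL6, PdgfrbGFP, Cspg4dsRED and Acta2GFP, and its mural sums at 1667, 1907, 988 and 1031 CPM. Only Acta2GFP had more of it in fibroblasts, and the difference was not called, with a value of -0.98 ± 0.43 (edgeR adjusted p = 0.283). Postn was low in clusters 5 and 7 (94.9 and 90.6 CPM on average) and high in cluster 8 (2081 CPM), and these took different shares of each strain's cells. Fn1 (chr1:71585520-71653200, minus strand) was likewise lower in 3 of 4 strains, at 88.6, 101.9, 349 and 170.7 CPM against 318, 309, 303 and 213.5 CPM (-0.74 ± 0.41, edgeR adjusted p = 0.431). Tnc (chr4:63959785-64047015, minus strand), an anti-adhesive hexameric glycoprotein, stayed at or below 27.7 CPM on both sides, and only 53 of these heart cells (4.14%) had a count.

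**Figure D2:**
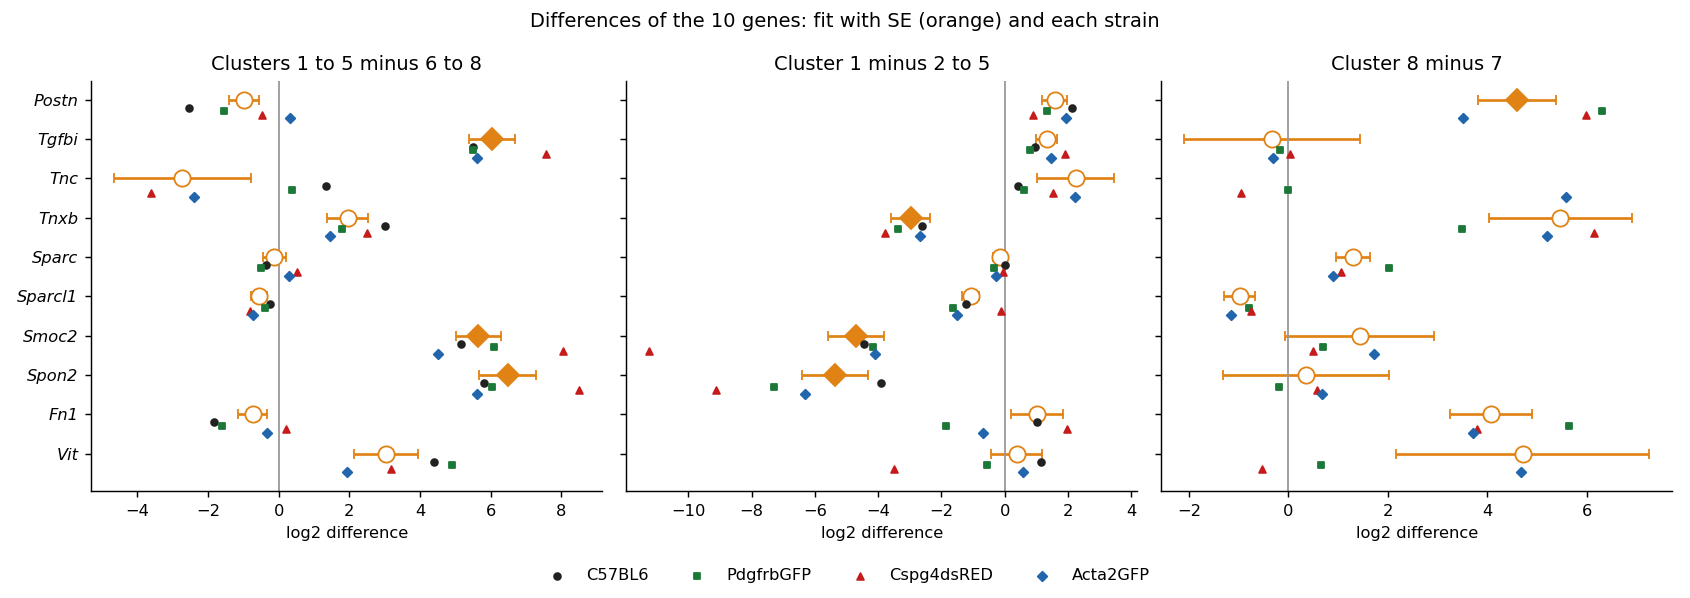
Log2 differences of the 10 genes between clusters 1 to 5 and 6 to 8, cluster 1 and clusters 2 to 5, and clusters 8 and 7. Orange symbols are edgeR fits with their SE (filled diamonds, adjusted p below 0.05) and small symbols are the log2(CPM + 1) differences of single strains; Tgfbi, Smoc2 and Spon2 lie near 6 on the left, and Smoc2, Spon2 and Tnxb lie below 0 in the middle.

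Among the fibroblasts, cluster 1 was compared with the sum of clusters 2 to 5. Smoc2, Spon2 and Tnxb were lower in cluster 1 in all 4 strains and were called. Postn and Tgfbi were higher in all 4 strains without passing the test. For both genes the strain ranges of clusters 4 and 1 overlapped. They were 546 to 1511 and 1122 to 3064 CPM for Postn, and 364 to 671 and 510 to 1414 CPM for Tgfbi. The 3 members called were all lower, where 1.33% of 13201 genes tested were called, 0.773% of them lower and 0.561% higher. The members' median difference was 0.12 on the log2 scale, against -0.03 over all genes tested. In each strain the sum of 6 genes induced by tissue dissociation (Fos, Jun, Egr1, Atf3, Hspa1a, Hspa1b) was lower in cluster 1 (2222 to 7302 CPM) than in any of that strain's other fibroblast clusters (4310 to 13194 CPM). The mural markers were higher in cluster 1 than in any of these clusters, at 730, 151.3, 397 and 125.5 CPM in Acta2GFP, C57BL6, Cspg4dsRED and PdgfrbGFP against at most 326, 148.5, 294.95 and 99.95 CPM, and so were the cardiomyocyte markers, at 39.1 to 352 CPM in cluster 1. The part of these 3 lists in the differences was not tested.

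Smoc2 was at 65.1, 110.1 and 0 CPM in cluster 1 of C57BL6, PdgfrbGFP and Cspg4dsRED, with Acta2GFP just below PdgfrbGFP, and at 1444, 1977, 2401 and 1878 CPM in clusters 2 to 5 of C57BL6, PdgfrbGFP, Cspg4dsRED and Acta2GFP. The value of 0 rests on 3 cells with 810367 counts. The log2 difference was -4.69 ± 0.89 (edgeR adjusted p = 0.0313). The fit with a strain block gave -5.06 ± 1.04 and no call (adjusted p = 0.121).

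Spon2 was at 38.4, 1.49, 0 and 4.62 CPM in cluster 1 of the same strains and at 585, 389, 556 and 441 CPM in clusters 2 to 5 (-5.37 ± 1.04, edgeR adjusted p = 0.0353). Tnxb was at 28.9, 10.2, 17.3 and 68.7 CPM against 182.9, 114.9, 251.2 and 444 CPM (-2.97 ± 0.63, edgeR adjusted p = 0.0469). For all 3 genes the highest cluster 1 sum was below the lowest sum of clusters 2 to 5.

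Postn was at 1122, 1394, 1246 and 3064 CPM in cluster 1 and at 256.9, 554, 664 and 804 CPM in clusters 2 to 5. These sums did not overlap either, but the difference of 1.58 ± 0.40 had an edgeR adjusted p of 0.0884. In the fit with a strain block it was called (1.58 ± 0.24, adjusted p = 0.0452), in a fit that called 3 members, Postn, Tnxb and Spon2, and 0.742% of all genes. Tgfbi was at 510, 794, 1414 and 993 CPM in cluster 1 and at 261.4, 458, 374 and 356 CPM elsewhere (1.33 ± 0.32, edgeR adjusted p = 0.0704). Sparcl1 was lower in cluster 1 in all 4 strains, at 727 to 1576 CPM against 1698 to 2233 CPM (-1.07 ± 0.27, edgeR adjusted p = 0.0823).

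These calls depended on single strains, while the sizes stayed between -4.99 and -4.21 for Smoc2, -7.51 and -5.03 for Spon2 and -3.30 and -2.80 for Tnxb with each strain left out in turn. No member was called without Acta2GFP or without PdgfrbGFP, and only Spon2 without C57BL6 (-7.51, edgeR adjusted p = 0.0131). Without Cspg4dsRED, whose cluster 1 held 3 cells, Smoc2 (-4.21, adjusted p = 0.00245) and Sparcl1 (-1.45, adjusted p = 0.0344) were called. Fn1 in cluster 1 of Cspg4dsRED reached 1122 CPM, with 97.9% of the counts from 1 cell, and the difference over the strains (1.02 ± 0.83) became -0.28 without that strain.

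Clusters 2 to 5 were compared each with the other clusters of the 4. In the edgeR fit used for every comparison here (all strains, the strain as the unit, no block, low counts filtered) no gene was called for these clusters, so 0.0% was the background for clusters 2, 3, 4 and 5, out of 13870, 14803, 14104 and 16214 genes tested. At an unadjusted p below 0.05 there were 641, 895, 670 and 630 genes, and DESeq2 called 1.22%, 2.61%, 1.29% and 0.789% of the genes. The values of the members are therefore given as a description.

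Smoc2 and Spon2 were highest in cluster 2. Smoc2 averaged 2947 ± 301 CPM in cluster 2 (SD, n = 4 strains), 1663 ± 338 in cluster 5 (n = 2), 1453 ± 511 in cluster 4 (n = 4), 519 ± 140.9 in cluster 3 (n = 3) and 70.8 ± 51.6 in cluster 1 (n = 4). The strain ranges of cluster 2 and cluster 5 did not overlap, those of clusters 5 and 4 did, and those of clusters 4 and 3 did not. Cells at 100 CPM or more made up 94.98% of cluster 2 and 41.96% of cluster 3. With a strain block, Smoc2 was called lower in cluster 3 than in clusters 2, 4 and 5 (-1.76 ± 0.15, adjusted p = 0.000734; without the block -1.72 ± 0.29, edgeR adjusted p = 0.173), a fit that called 0.236% of all genes. Spon2 averaged 689 ± 262.95 CPM in cluster 2 and 447 ± 115.6 in cluster 4, with overlapping ranges. In cluster 3 it was at 320 and 360 CPM in C57BL6 and Acta2GFP and at 4.63 CPM in the 7 cells of PdgfrbGFP.

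Vit was highest in cluster 3. Its sums there were 287.2 CPM in C57BL6, 275.2 in PdgfrbGFP and 457 in Acta2GFP, against 50.2, 62.5 and 51.4 CPM over clusters 2, 4 and 5. Pericyte markers were also higher in cluster 3 than in clusters 2, 4 and 5 of each strain (238.6 to 322 CPM against 68.6 to 195.2 CPM), and smooth muscle markers were higher in Acta2GFP (1447 CPM against 313 to 532) and PdgfrbGFP (948 CPM against 72.8 to 131.6). Their part in the Smoc2 and Vit values was not tested. The sides were apart in every strain for Vit (2.79 ± 0.49, edgeR adjusted p = 0.183; DESeq2 3.03, adjusted p = 0.00644). At 100 CPM or more were 50% of the cells of cluster 3, 30% of cluster 1 and 7.31% of cluster 2.

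Postn and Fn1 had their highest means among clusters 2 to 5 in cluster 4. Postn averaged 1065 ± 396 CPM there, 851 ± 656 in cluster 3, 183.3 ± 125.8 in cluster 2 and 94.9 ± 109.4 in cluster 5. Its strain ranges in clusters 4 and 3 overlapped, and in Acta2GFP cluster 3 was higher (1595 against 1090 CPM). Fn1 averaged 303 ± 168.4 CPM in cluster 4 and 41.3 ± 14.7 in cluster 2. The Fn1 difference was 2.18 ± 0.40 for cluster 4 (edgeR adjusted p = 0.117) and -2.53 ± 0.49 for cluster 2 (adjusted p = 0.177), with all 4 strains in the same direction and sides that did not overlap. For Postn the values were 1.97 ± 0.49 for cluster 4 (edgeR adjusted p = 0.336), -2.11 ± 0.70 for cluster 2 (adjusted p = 0.745) and -2.55 ± 1.10 for cluster 5 (adjusted p = 1.00, n = 2 strains). The dissociation genes were highest in cluster 5, at 11750.5 CPM in C57BL6 and 13194 CPM in PdgfrbGFP. Clusters 2 to 4 of these strains reached 11703 and 10640 CPM, and the part of these genes was not tested. The valve interstitial markers were higher in cluster 4, at 550, 430, 739 and 417 CPM in Acta2GFP, C57BL6, Cspg4dsRED and PdgfrbGFP. In clusters 2, 3 and 5 of these strains they were at most 293, 261.1, 157.4 and 217.9 CPM. Their part in the levels of Postn, Fn1 and Tgfbi was not tested.

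In cluster 4 the cells at 100 CPM or more carried nearly all counts of both genes. For Postn these were 24.4% of the cells in C57BL6, 38.5% in Cspg4dsRED, 47.2% in PdgfrbGFP and 57.5% in Acta2GFP, and they held 98.2% to 99.6% of the counts. The median cell had 3.98 CPM of Postn in C57BL6 and 151.6 CPM in Acta2GFP. For Fn1 they were 23.1% to 40% of the cells, with 96.99% or more of the counts. For Tgfbi they were 45.3% to 60% of the cells, with 97.6% or more of the counts. Sparc differed in kind, since 96.6% to 100% of cells in every cluster were at 100 CPM or more.

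**Figure D3:**
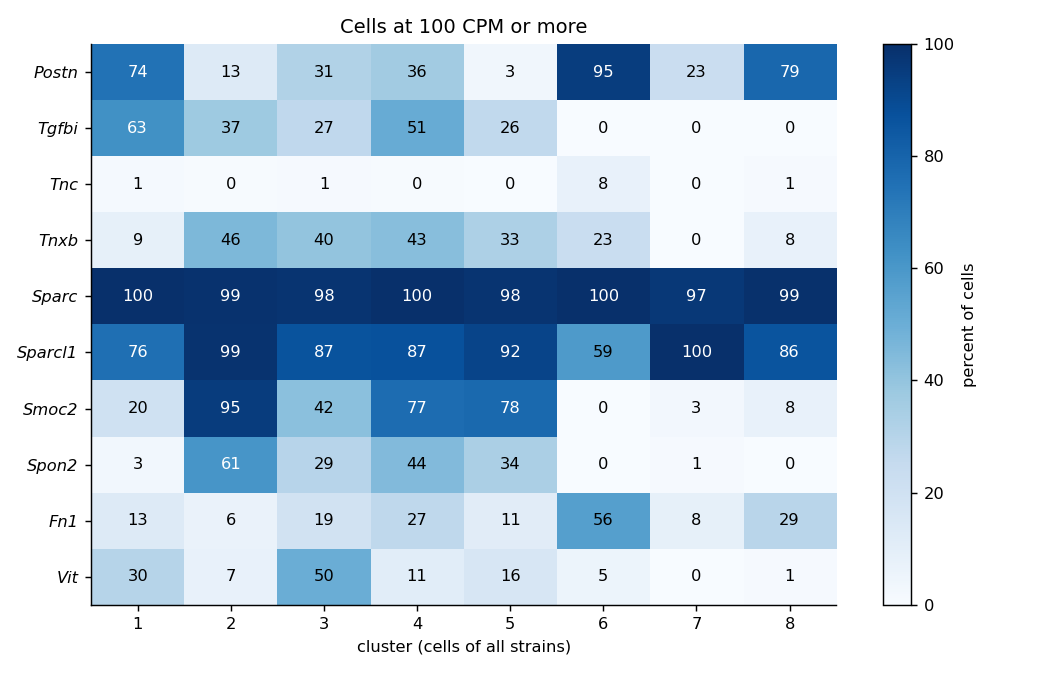
Percent of cells, over all strains, with 100 CPM or more of each gene in clusters 1 to 8. Sparc was at this level in nearly every cell, Tgfbi in none of clusters 6 to 8, and Postn in 74.3% of cluster 1, 3.42% of cluster 5 and 94.9% of cluster 6.

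The values of the remaining members among clusters 2 to 5 were as follows. Tgfbi averaged 524 ± 147.9 CPM in cluster 4 and 260.8 to 271.8 CPM in clusters 2, 3 and 5, whose ranges overlapped. Tnxb averaged between 146.6 and 287.7 CPM, Sparc between 2415 and 3098 CPM and Sparcl1 between 1280 CPM (cluster 3) and 2593 CPM (cluster 2). Tnc averaged between 0.17 CPM (cluster 5) and 1.51 CPM (cluster 3).

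In the mural clusters, Postn separated cluster 8 from cluster 7. The 4 smooth muscle markers summed to between 10670 and 15717 CPM in cluster 7 and to between 201.1 and 4033 CPM in cluster 8, while the pericyte markers Rgs5, Kcnj8, Abcc9 and Vtn ran from 2486 to 8974 CPM and from 6942 to 23596 CPM. Postn was at 2489, 1951 and 2114 CPM in cluster 8 of Acta2GFP, Cspg4dsRED and PdgfrbGFP and at 216.5, 29.8 and 25.5 CPM in cluster 7. The difference was 4.599 ± 0.777 (edgeR adjusted p = 0.0407). It was the only one of 9 members tested that was called, where 0.194% of 11867 genes were called, 0.0843% of them higher. The members' median difference was 1.43, against 0.18 over all genes. C57BL6 had 1 cell in cluster 7 and did not enter. In the 3 strains that did, the fibroblast markers were also higher in cluster 8 (4641, 780 and 1438 CPM) than in cluster 7 (695, 154.8 and 545 CPM). Lower in cluster 8 were the cardiomyocyte markers (359, 390 and 208.8 CPM against 1346, 1408 and 1922 CPM) and the dissociation genes (3068, 1849 and 2784 CPM against 5538, 8610 and 8848 CPM). In cluster 7 of PdgfrbGFP, the highest of these cardiomyocyte sums, Myh6, Actc1, Ryr2 and Nppa had no count. The part of these lists in the result was not tested.

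Fn1 went the same way, at 370, 647 and 342 CPM in cluster 8 and 27.3, 45.6 and 5.89 CPM in cluster 7 (4.08 ± 0.83, edgeR adjusted p = 0.0815). Sparc was at 2872, 3111 and 4836 CPM against 1530, 1496 and 1195 CPM (1.29 ± 0.34, edgeR adjusted p = 0.204). Sparcl1 was lower in cluster 8, at 1752, 2625 and 2507 CPM against 3912, 4440 and 4336 CPM (-0.97 ± 0.31, edgeR adjusted p = 0.351). The fit with a strain block called these 3 genes and Postn (adjusted p = 0.0232, 0.0338, 0.0342 and 0.00182), 4 members beside 0.691% of all genes. No gene was called without PdgfrbGFP, whose cluster 7 held 9 cells, nor when 10 cells were needed on each side, which leaves out the same strain; edgeR then gave 1514 genes at an unadjusted p below 0.05, with 2 strains a side. Postn still differed by 4.23 ± 0.99 in that fit (edgeR adjusted p = 0.329).

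Tnxb, Vit and Tnc in cluster 8 were highest in Acta2GFP. Tnxb was at 357, 117.3 and 32.2 CPM in Acta2GFP, Cspg4dsRED and PdgfrbGFP against at most 8.70 CPM in cluster 7 (5.47 ± 1.44, edgeR adjusted p = 0.198), and 53.3% of the cluster 8 cells of Acta2GFP were at 100 CPM or more, against 10.3%, 2.52% and 3.03% in Cspg4dsRED, PdgfrbGFP and C57BL6. Vit reached 91.3 CPM in Acta2GFP and at most 3.52 CPM in the other strains. Tnc was at 83.6 CPM in Acta2GFP, where 1 cell gave 89.1% of the counts, and at most 0.300 CPM elsewhere; it was not tested here because of its low counts.

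Cluster 6 held high Postn and the highest mean Fn1. Postn was at 1317, 1983 and 1017 CPM in C57BL6, Cspg4dsRED and Acta2GFP, and Fn1 at 365, 518 and 850 CPM, against 150.3 to 312 CPM in clusters 7 and 8 of the same strains. Fn1 was higher in cluster 6 in all 3 strains (1.53 ± 0.64, edgeR adjusted p = 0.746). C57BL6 and Acta2GFP had 3 cells each, and in Acta2GFP 97.03% of the Postn counts came from 1 cell. In Cspg4dsRED, with 33 cells, all 33 were at 100 CPM or more of Postn. No member was called, where 0.033% of 12117 genes were called.

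Sparcl1 was the member most reduced in cluster 6. It was at 20.6, 741 and 1837 CPM in C57BL6, Cspg4dsRED and Acta2GFP against 2427 CPM or more in clusters 7 and 8 (-1.64 ± 0.96, edgeR adjusted p = 0.994). With a strain block it was -2.91 ± 0.42 and was called (adjusted p = 2.89e-09), beside 0.883% of all genes. The C57BL6 value came from the 3 cells with high fibroblast markers. The fit with a block was not run with a strain left out. In the fit without a block no member was called with all strains, nor without C57BL6. Without Acta2GFP, Sparcl1 was called in that fit (-3.01, edgeR adjusted p = 0.0165).

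**Figure D4:**
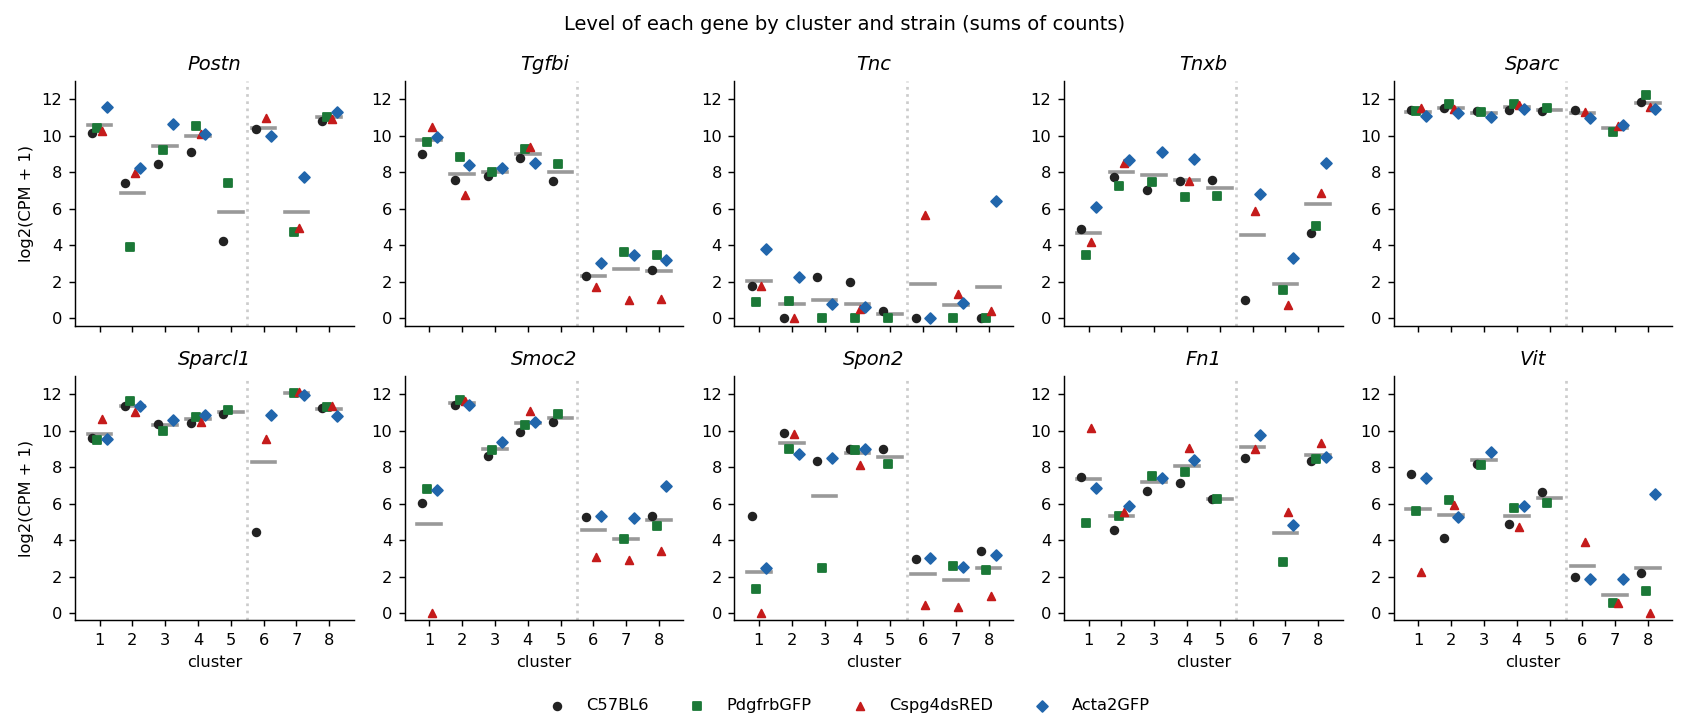
Level of each gene, as log2(CPM + 1) of the counts summed per strain, in clusters 1 to 8 (3 cells or more per point). Points are strains, grey bars their means on this scale, and the dotted line divides clusters 1 to 5 from 6 to 8; Postn was high in clusters 1, 3, 4, 6 and 8 and low in clusters 2, 5 and 7, while Tgfbi was lower to the right of the dotted line.

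Over all clusters, Postn was therefore not ordered by the fibroblast and mural division. Its means ran from 2081 ± 307 CPM in cluster 8 through clusters 1 (1706 ± 912), 6 (1439 ± 494), 4 and 3, with overlapping ranges between neighbours, and then to clusters 2, 5 and 7 (90.6 ± 109.1). The ranges of clusters 3 and 2 did not overlap. Sparcl1 was led by cluster 7 (4229 ± 279.4 CPM), whose range stood above that of cluster 2 (2593 ± 428), the next in order. Sparc was led by cluster 8 (3624 ± 876) and lowest in cluster 7 (1407 ± 184.5), below all other clusters. The sum of all 10 members was lowest on average in cluster 6, at 5430 CPM, and highest in cluster 2, at 9967 CPM.

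The genes most alike to each member were taken over 27 sums of strain and cluster, by Pearson's r of log2(CPM + 1) among 10326 genes with a mean of at least 10 CPM; these sums share strains, plates and clusters. They were Meox1 (0.96) and Enc1 (0.94) for Tgfbi, Igfbp6 (0.95) and C3 (0.95) for Smoc2, and Svep1 (0.95) and Tek (0.95) for Spon2. For Postn and Fn1 each was the other's most alike gene (0.71), followed by Sorbs3 (0.69) and Slc44a2 (0.69). The values were 0.88 and 0.88 for Sparcl1 (Mdh2, Strap), 0.87 and 0.87 for Tnxb (Kdelr3, Xdh), 0.86 and 0.86 for Vit (Gm43109, Bicc1), 0.81 and 0.80 for Sparc (Ifnar2, Anxa5) and 0.69 and 0.65 for Tnc (Strbp, Serpinb6b).

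Relatives of the members were taken from a list of 27 genes. In fibroblasts against mural cells 21 were tested, of which 5 were called higher and 3 lower, where 2.45% of all genes were called lower. Higher were Vwa1 (4.25 ± 0.80) and Matn2 (2.73 ± 0.43), which like Vit carry von Willebrand A domains, Fstl1 of the SPARC family (1.29 ± 0.30), the thrombospondin Thbs4 (3.98 ± 1.02) and Spp1, osteopontin (5.57 ± 1.29). Lower were Vtn, vitronectin (-7.36 ± 1.02), Mfge8 (-1.92 ± 0.25) and Ccn3 (-3.65 ± 0.94). The edgeR adjusted p values lay between 0.00157 and 0.0487. The list's median difference was 0.98. Vtn is also one of the pericyte markers above.

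In cluster 1 against clusters 2 to 5, 20 relatives were tested, and 3 were called higher and 2 lower, beside 0.561% and 0.773% of all genes. The thrombospondins Comp (3.73 ± 0.43, edgeR adjusted p = 0.00212), Thbs1 (3.29 ± 0.42, adjusted p = 0.00298) and Thbs4 (3.54 ± 0.57, adjusted p = 0.0122) were higher. Comp and Thbs1 are also among the valve markers. Vwa1 (-3.03 ± 0.58, edgeR adjusted p = 0.0341) and Matn2 (-1.28 ± 0.28, adjusted p = 0.0495) were lower. The list's median was 0.07.

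Of 9 receptor genes, integrin subunits and syndecan-4, only Itga8, the α8 chain that pairs with β1 and binds fibronectin and other RGD-bearing ligands, was called by edgeR, both in fibroblasts against mural cells (beside 5.93% of all genes) and in cluster 1 against clusters 2 to 5 (beside 1.33%). It was lower in fibroblasts than in mural cells (-4.05 ± 1.01, adjusted p = 0.0430), at 14.8, 14.6, 7.01 and 25.6 CPM against 119.4, 7.63, 674 and 249.4 CPM in C57BL6, PdgfrbGFP, Cspg4dsRED and Acta2GFP. PdgfrbGFP went the other way, and its mural cells included none of cluster 6 and 9 of cluster 7. In cluster 6 Itga8 differed from clusters 7 and 8 by 3.05 ± 0.67 and was not called (edgeR adjusted p = 0.214). The part of the mix of clusters in these values was not tested. Within fibroblasts Itga8 was higher in cluster 1 (3.42 ± 0.71, edgeR adjusted p = 0.0434), at 103.1, 71.5, 35.8 and 97.8 CPM against 11.5, 7.52, 4.62 and 5.33 CPM. No relative and no receptor was called in the other 6 comparisons. In these, no gene at all was called for clusters 2 to 5, and 0.033% and 0.194% of all genes for clusters 6 and 8. This count therefore says little of these genes.

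Some reads of these genes cannot be assigned with certainty, since the strand setting of the counting was not stated. Fn1 shares 2.50% of its exonic bases with Apol7d and Tnc 2.27% with 8030451A03Rik, both on the opposite strand, and these had 766 and 27 counts in all cells. Tnxa, a partial copy of Tnxb, had 36 counts against 61821 of Tnxb. In the 2 larger C57BL6 plates the members' sums were near each other for Smoc2 in cluster 2 (2901 and 2296 CPM) and Tgfbi in cluster 4 (478 and 373 CPM), and further apart for Fn1 in cluster 2 (38.2 and 1.00 CPM) and Tnxb in cluster 2 (101.3 and 377 CPM).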

How the data were processed

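Read counts per gene of 1279 mouse heart cells, deposited without normalization, were used. The authors trimmed reads with Trim Galore, mapped them to GRCm38 with TopHat2 and counted them with featureCounts. They removed cells of low depth, cells expressing neither Pdgfra nor Pdgfrb, and cells with clear contamination, for example by endothelial or immune genes. Cells with very many genes were removed as likely doublets, and no doublet caller was run here. Clusters came from their pagoda2 analysis of the same counts. ERCC spike-ins (1.82% of counts) were left out. The table was matched to GENCODE M21. Counts were summed per strain and side where both sides had 3 cells or more. edgeR 4.0.16 (R 4.3.3) quasi-likelihood tests without block, TMM factors and filterByExpr with a minimum count of 10 were run across all genes, SE being the log2 difference over the root of F. DESeq2 1.42.0, limma 3.58.1, a strain block and other settings were alternatives. Sums of 1 strain share its plates and so are paired, for C57BL6 only in part, since its plates 204s and 316s held no mural cells. The deviations of the sums of a strain correlated at 0.03 to 0.24. The script was checked on simulated counts. Levels per kilobase used the longest coding transcript of GENCODE M21. Named genes were all members, called genes of the fixed lists and the 2 most alike genes per member. Members and lists were chosen with earlier results of these data known. Reads carry no molecular identifiers, so shares and limits cover counting error only, and a count of 0 allows 3 counts. p-values measure the spread between strains.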

Additional observations from a re-analysis of the deposited data

Results flagged for a closer look

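Of 60 groups of 4 strains (each member in clusters 1, 2, 4 and 8, and on the fibroblast and mural sides), 12 held 1 strain far from the other 3 by Dixon's ratio at its 95% limit. Chance flags about 1 in 20 groups.

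In cluster 1, Cspg4dsRED, with 3 cells, was far above the others for Fn1 (1122 CPM against 30.1 to 175.3) and Sparcl1 (1576 CPM against 727 to 784), Acta2GFP for Postn (3064 CPM against 1122 to 1394) and Tnc (13.02 CPM against 0.867 to 2.47), and C57BL6 for Spon2 (38.4 CPM against 0 to 4.62). In cluster 4, Cspg4dsRED was low for Spon2 (274.6 CPM against 487 to 518). In cluster 8, Cspg4dsRED was high for Fn1 (647 CPM against 322 to 370), and Acta2GFP was high for Tnc (83.6 CPM against 0 to 0.300) and Vit (91.3 CPM against 0 to 3.52). On the mural side Acta2GFP was low for Fn1 (213.5 CPM against 303 to 318) and high for Tnxb (131.9 CPM against 21.3 to 40.1) and Vit (31.6 CPM against 1.26 to 4.55).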

How the results depend on the processing

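Of the 734 alternative log2 differences of the members, 631 kept their direction and side of the threshold, 41 passed it newly, 15 lost it and 47 changed sign. Tgfbi, Smoc2 and Spon2 were called higher in fibroblasts than in mural cells under every alternative run. The cause of the changes was not tested. Few strains, few cells in clusters 1 and 6, and low counts of Tnc limit what could be detected. The plate as the unit was not run for fibroblasts against mural cells or clusters 6 and 8, a minimum of 10 cells was not run for clusters 4, 5 and 6 or for fibroblasts against mural cells, and cluster 5 had 2 strains and no strain could be left out. Thinning to 50000 counts took 60 of 80 shares of cells with a count outside the 95% Wilson interval of the unthinned share.

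Members called numbered 6 (DESeq2), 5 (limma), 5 (strain as a block) and 3 to 5 (each strain left out, 5 without Acta2GFP) for fibroblasts against mural cells. For cluster 1 they were 5 (DESeq2), 5 (plate as unit) and 0 to 2 (strains left out). For cluster 2 they were 2 (DESeq2) and 1 (plate as unit), and for cluster 3 they were 1 without a filter, 1 by DESeq2, 1 by limma, 1 with the block and 2 with the plate as unit. They were 2 by DESeq2 in cluster 4, 1 without a filter in cluster 5, and in cluster 6 they were 1 without a filter, 1 with the block and 0 to 1 with strains left out (1 without Acta2GFP). For cluster 8 against 7 they were 3 without a filter, 3 by DESeq2, 4 with the block, 0 with at least 10 cells and 0 to 2 with strains left out. The block changed no other call of a member than those given here and in the results.

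Over all genes, the share of tested genes called was 5.93% for fibroblasts against mural cells, 2.58% without a filter, 12.7% by DESeq2, 9.22% by limma and 2.66% to 3.91% with a strain left out. For cluster 1 it was 1.33%, with 0.53% without a filter, 5.22% by DESeq2, 2.36% by limma, 0.742% with the block, 0.748% with 10 cells and 0.201% to 0.748% with a strain left out. For clusters 2, 3, 4 and 5 it was 0.0%, but 0.00736%, 0.0705%, 0.0184% and 0.119% without a filter, 1.22%, 2.61%, 1.29% and 0.789% by DESeq2, and 0.176%, 0.135%, 0.159% and 0.00672% with the plate as unit. Limma gave 0.0135% in cluster 3 and 0.106% in cluster 4, the block 0.236% in cluster 3, and cluster 4 gave 0.00657% without Cspg4dsRED. For cluster 6 it was 0.033%, with 0.0495% by DESeq2 size factors, 0.418% without a filter, 2.81% by DESeq2, 0.883% with the block and 0 to 0.495% with a strain left out. For cluster 8 it was 0.194%, with 0.379% by DESeq2 size factors, 0.855% without a filter, 3.20% by DESeq2, 0.379% by limma, 0.691% with the block, 0 with 10 cells and 0 to 0.987% with a strain left out. By DESeq2 size factors the calls of cluster 8 were 12 higher and 33 lower, against 10 and 13. By DESeq2 the calls for fibroblasts against mural cells were 942 higher and 984 lower, against 525 and 371. For cluster 1 lower genes made up 71.8% of the calls by limma and 75.9% with the plate as unit, against 57.95%.

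Signs changed as follows, none of these values being called. With strain as a block the differences were 0.057 for Tnc in fibroblasts against mural cells, -0.36 for Vit in cluster 1, -0.18 for Tnc in cluster 3, -0.0061 for Tnxb in cluster 5, and 0.22 (Tgfbi), -0.34 (Tnc), -0.79 (Tnxb) and 0.12 (Vit) in cluster 6. With limma they were 0.0015 (Sparc) for fibroblasts against mural cells, -0.49 (Vit) in cluster 1, -0.018 (Tnc) and -0.0096 (Sparc) in cluster 2, 0.041 (Tnc) in cluster 4, -0.34 (Tnxb), -0.065 (Sparcl1), -0.18 (Smoc2) and -0.28 (Vit) in cluster 5, and -0.81 (Tnxb) and 0.25 (Vit) in cluster 6. DESeq2 size factors and DESeq2 gave 0.16 and 0.16 (Sparc, cluster 3), 0.18 and 0.17 (Tgfbi, cluster 6), 0.0023 and 2.9e-05 (Smoc2, cluster 6), 0.27 and 0.27 (Spon2, cluster 6), and -0.097 and -0.099 (Spon2, cluster 8). Without a filter cluster 6 gave -0.079 (Tnxb) and -0.087 (Sparc), and with at least 10 cells cluster 1 gave -0.28 (Fn1). With each strain left out in turn the lowest and highest values were -0.34 and 0.059 (Sparc) for fibroblasts against mural cells, -0.28 and 1.30 (Fn1) and -0.082 and 0.59 (Vit) in cluster 1, -0.016 and 0.099 (Sparc) in cluster 2, -1.23 and 1.65 (Tnc) in cluster 3, and -0.34 and 1.25 (Tnc) and -0.49 and 0.16 (Spon2) in cluster 4. In cluster 6 they were -0.13 and 1.04 (Postn), -0.233 and 0.022 (Tgfbi), -0.20 and 0.22 (Tnxb), -0.15 and 0.36 (Sparc), -0.64 and 0.39 (Spon2) and -2.62 and 2.25 (Vit), and in cluster 8 they were -0.21 and 0.96 (Spon2). For Sparc in cluster 6 the fit without Acta2GFP gave -0.11.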
